A study of Mus musculus with 16 samples.

Results

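Inner retinal neuron genes are marker genes of the 4 classes of retinal neurons that receive, shape and send on the photoreceptor signal. The list holds 39 genes, of which 9 mark bipolar cells, 11 amacrine cells, 5 horizontal cells and 14 ganglion cells. It was chosen by gene name, and each gene took the probe that carries its current or an older symbol and has the highest mean intensity. Gad2, Tfap2a, Tfap2b and Nefm were listed on the array under older names (6330404F12Rik, Tcfap2a, Tcfap2b and Nef3). All 39 were on the array and passed the filter on dim probes, out of 23307 genes kept. Every member's probe was well above background on all 16 arrays and on no array saturated, so the filter on dim probes was passed in every group. Their mean log2 intensity still ran from 4.26 for Ptf1a to 15.8 for Pcp2. The dimmest ganglion cell probes were those of Pou4f3, at 6.76, and Pou4f2, at 7.63. Spots marked as outliers were dropped, which left some members without a value on some arrays.

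The samples were retinas of C57Bl6 mouse pups, hybridised to 16 Agilent arrays of 2 colours. Pups were 8 days old when 1 µg of VEGF-A (5 arrays), 4 µg of Dll4-Fc (4 arrays) or 4 µg of hFc as the control (4 arrays) was injected into the vitreous. VEGF Trap went to 3 arrays, and the labels give neither its dose nor its age. Retinas were collected 24 h later. VEGF-A is a growth factor for blood vessels, VEGF Trap is a soluble receptor that binds it, and Dll4-Fc is a fusion of the Notch ligand Dll4. The measure was log2 of sample (Cy3) over a common pool of RNA from the same experiment (Cy5), called the log2 ratio below. A log2 ratio of 0 means the level of that pool, so levels are compared between arrays and never between genes. Whether the samples are separate animals is not stated, so p-values measure the spread between samples, which may be technical. Slide 1 carried the 4 hFc arrays and slide 2 the 4 Dll4-Fc arrays, so slide and treatment cannot be told apart for them. Slide 3 held VEGF-A 1 and 2 with VEGF Trap 1 and 2, and slide 4 held VEGF-A 3, 4 and 5 with VEGF Trap 3.

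In the retina, bipolar cells carry the signal of rods and cones inwards by glutamate. Horizontal cells feed back on photoreceptors, and amacrine cells act on bipolar and ganglion cells, mostly through GABA or glycine. Ganglion cells collect the result and send it through their axons in the optic nerve to the brain. At the age studied the retina is still maturing and its vessels are still growing. Some members are not limited to their class. Calb2 and Isl1 are also made by ganglion cells, Otx2 by photoreceptors and pigment epithelium, and Trpm1 by pigment cells.

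The 250 bases before the start site are shown for Slc17a6 and Sncg, the members with the largest differences described below, and for Grm6, which differed in the other direction. Slc17a6 has 2 start sites in the RefSeq table (build GRCm38.p6), and its 250 bases lie at chr7:51621580-51621829, plus strand, and at chr7:51624387-51624636, plus strand. Those of Sncg lie at chr14:34374670-34374919, minus strand, and those of Grm6 at chr11:50850435-50850684, plus strand. Each is written 5′ to 3′ on the strand of the gene, and capitals mark a match to TAATTA, the core of many homeodomain binding sites.
Slc17a6, first start site: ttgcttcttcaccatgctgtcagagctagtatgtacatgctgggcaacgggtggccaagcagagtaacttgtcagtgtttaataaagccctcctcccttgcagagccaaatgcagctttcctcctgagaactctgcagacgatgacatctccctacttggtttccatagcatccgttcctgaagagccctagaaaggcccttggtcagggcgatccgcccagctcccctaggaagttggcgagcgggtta
Slc17a6, second start site: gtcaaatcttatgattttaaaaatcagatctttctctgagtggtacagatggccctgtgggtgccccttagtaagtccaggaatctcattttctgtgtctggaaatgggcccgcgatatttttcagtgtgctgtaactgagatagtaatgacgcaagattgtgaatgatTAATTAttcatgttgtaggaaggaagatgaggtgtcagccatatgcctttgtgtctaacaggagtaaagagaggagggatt
Sncg: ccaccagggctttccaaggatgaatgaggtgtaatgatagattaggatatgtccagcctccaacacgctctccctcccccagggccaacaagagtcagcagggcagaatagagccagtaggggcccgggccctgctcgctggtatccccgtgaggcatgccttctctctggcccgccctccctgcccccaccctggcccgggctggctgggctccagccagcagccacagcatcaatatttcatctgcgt
Grm6: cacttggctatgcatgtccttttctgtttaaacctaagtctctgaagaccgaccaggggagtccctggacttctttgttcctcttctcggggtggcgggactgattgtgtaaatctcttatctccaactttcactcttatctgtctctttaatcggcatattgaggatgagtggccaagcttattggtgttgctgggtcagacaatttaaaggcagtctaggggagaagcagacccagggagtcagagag

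The table held promoters of 27 of the 39 members, 39 promoters in all, some of which overlap. It had no entry for Rbpms, Grik1, Nefm, Gap43, Nefh, Thy1, Calb2, Onecut2, Pou4f3, Stmn2, Nefl and Calb1. Besides TAATTA, which reads the same on both strands, TAATCC (the OTX core, GGATTA on the other strand) and TATAAA (the TATA box, TTTATA on the other strand) were searched on both strands, and matches of different motifs may share letters. TAATTA was in 1 of the 7 ganglion cell promoters and 3 of the 15 bipolar cell promoters, against 4.84% of all 32851 promoters of the same length. The OTX core was in 0 of the 7 ganglion cell promoters and 4 of the 15 bipolar cell promoters, those of Trpm1, Cabp5, Otx2 and Isl1, against 6.25% of all. The TATA box was in 0 of those 7 and 2 of those 15, against 12.4%. Amacrine cell promoters, 13 in all, held 1 of each motif, and the 4 horizontal cell promoters held 1 TATA box. These counts describe letters in a short window and say nothing of binding.

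Calls of inner retinal neuron genes numbered 0 to 7 in each comparison of treatments and 14 between the slides within VEGF-A. The share of all genes is given beside each count. Against hFc, 4 of 37 members fell after VEGF-A and 0 rose, where 10.2% of all genes were called and 4.3% were called lower. A gene was called at an adjusted p under 0.05 over all genes (limma). Dll4-Fc against hFc called 0 of 37 members in limma, with 1 member at an unadjusted p under 0.05, against 4.61% of all genes called. VEGF Trap against hFc called 2 of 37, against 3.75%. VEGF-A against VEGF Trap called 7 of 39, 6 of them lower, against 19.3% of all genes called and 8.7% called lower. Within VEGF-A, the 2 arrays of slide 3 differed from the 3 of slide 4 in 14 of 39 members, 13 of them lower on slide 3, where 4.39% of all genes were called and 2.87% called lower. Of those 13 members, 11 were ganglion cell genes, and all 14 ganglion cell genes had an unadjusted p under 0.05 there. Markers of other cells moved in the comparison of all 5 VEGF-A arrays with hFc: 6 of 6 cell cycle markers rose (median 2.24), 5 of 8 endothelial markers rose and 1 fell (median 0.71), and of 12 Müller glia markers 2 rose and 3 fell. Against VEGF Trap, 6 of 6 cell cycle and 7 of 8 endothelial markers were higher in VEGF-A. The part of these cells in the neuron gene values was not tested. These 4 comparisons of treatments, the slide difference within VEGF-A and its excess over that in VEGF Trap are the 6 comparisons below. Cabp5 and Onecut2 had no hFc value because their hFc spots were marked as outliers, which leaves 37 members for comparisons with hFc.

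**Figure D1:**
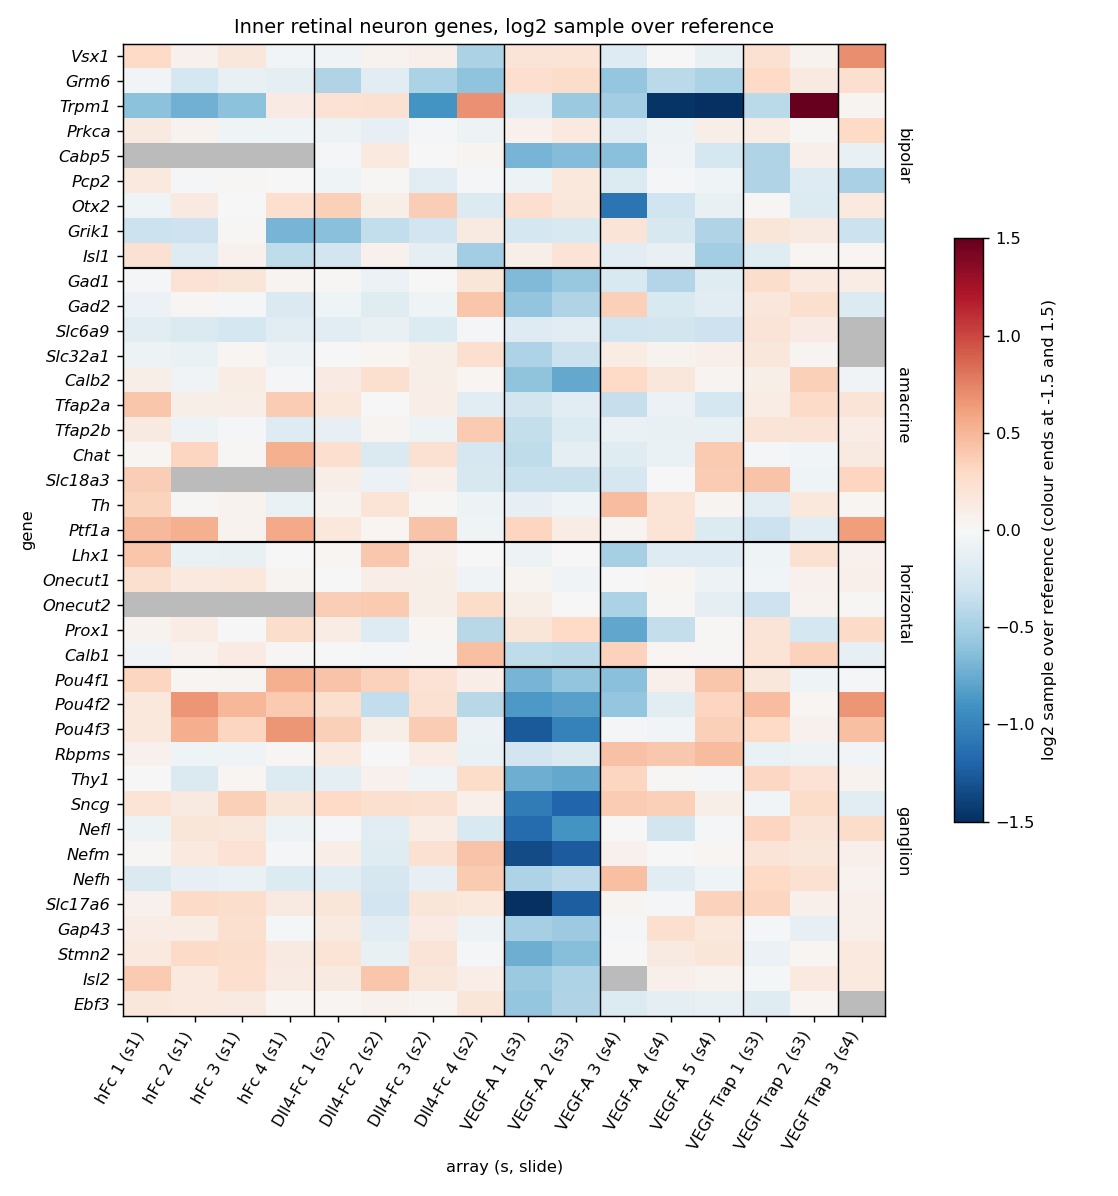
Log2 sample over reference of the 39 members (rows, by cell class) on the 16 arrays (columns, with the slide as s1 to s4); grey marks a value left out as an outlier spot, and colours end at −1.5 and 1.5. The 2 VEGF-A arrays of slide 3 are low across the ganglion cell rows, while the 3 of slide 4 are low in few of them, such as Pou4f1 (−0.63) and Pou4f2 (−0.58) on VEGF-A 3.

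Ganglion cell genes as a class were low on 2 arrays, VEGF-A 1 and 2, both on slide 3. The median log2 ratio of the 14 genes was −0.74 and −0.71 there. It was 0.0023, 0.014 and 0.13 on the VEGF-A arrays of slide 4. In the other groups it was 0.13, 0.14, 0.23 and 0.078 in hFc, 0.14, −0.05, 0.18 and 0.087 in Dll4-Fc, and 0.18, 0.068 and 0.079 in VEGF Trap. For 13 of the 14 genes both VEGF-A arrays of slide 3 lay below all other arrays with a value, against 7.37% of all genes. Pou4f1 was the exception, since VEGF-A 3 was as low. The same held for 6 of 11 amacrine cell genes (Gad1, Gad2, Slc32a1, Calb2, Tfap2b and Slc18a3), 1 of 5 horizontal cell genes (Calb1) and 1 of 9 bipolar cell genes (Cabp5). In a sample of whole tissue, fewer cells of a class and less RNA per cell cannot be told apart.

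**Figure D2:**
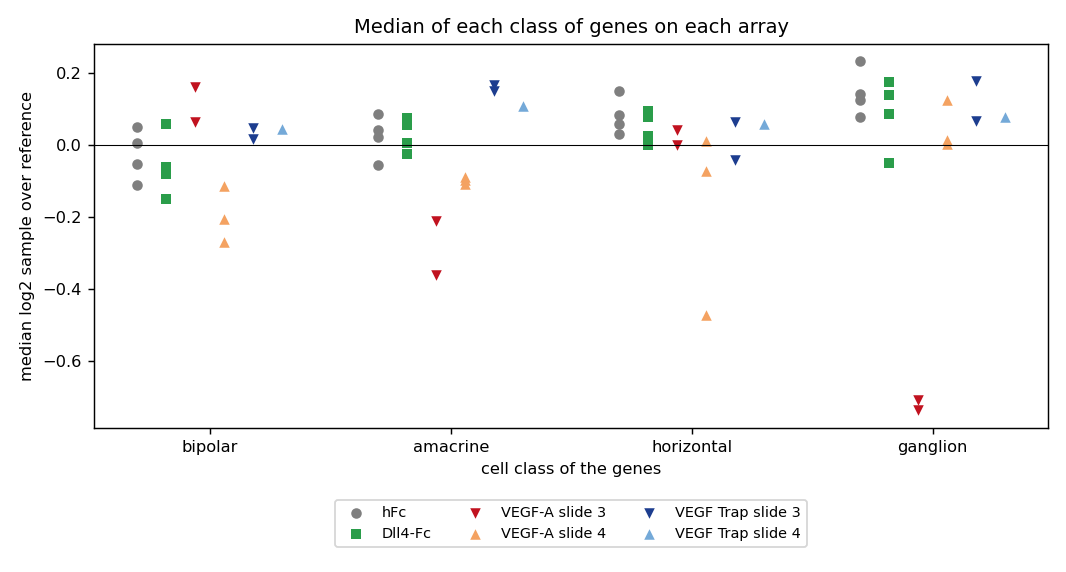
Median log2 sample over reference of the genes of each class (y) on each array, by cell class (x); each point is an array and colours and shapes give treatment and slide. For ganglion cell genes VEGF-A 1 and 2 sit at −0.74 and −0.71, and all other arrays lie between −0.05 and 0.23.

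Slc17a6, Sncg and Nefm had the largest slide differences of the ganglion cell genes within VEGF-A. They encode a transmitter transporter and proteins of the cytoplasm and axon. The transcription factor Pou4f3 came next, at −1.23. Slc17a6 had log2 ratios of 0.062, 0.29, 0.26 and 0.14 in hFc, 0.19, −0.29, 0.18 and 0.16 in Dll4-Fc, and 0.32 and 0.076 in VEGF Trap on slide 3 and 0.074 on slide 4. Slc17a6 in VEGF-A had −1.51 and −1.24 on slide 3 and 0.035, −0.032 and 0.34 on slide 4. Slc17a6 is the transporter VGLUT2, which loads glutamate into synaptic vesicles of ganglion cells. Both slide 3 arrays of VEGF-A lay below every other array, and their difference from slide 4 was −1.49 ± 0.16 (SE, adjusted p = 0.000452), or 2.81-fold lower. For Sncg the VEGF-A arrays gave −1.05 and −1.19 on slide 3 and 0.38, 0.36 and 0.088 on slide 4. The hFc arrays gave 0.21, 0.13, 0.36 and 0.19, the Dll4-Fc arrays 0.29, 0.25, 0.22 and 0.08, and VEGF Trap −0.041 and 0.27 on slide 3 and −0.17 on slide 4. Sncg, gamma-synuclein, is an abundant protein of ganglion cell bodies and axons, and was 2.62-fold lower on slide 3 within VEGF-A, at −1.39 ± 0.12 (SE, adjusted p = 0.000131).

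Of the neurofilament subunits, which build the scaffold of large axons, the light and medium chains differed between the slides and the heavy chain did not pass the test. Log2 ratios of Nefm were −1.34 and −1.24 in VEGF-A on slide 3, 0.069, 0.0097 and 0.028 in VEGF-A on slide 4, and 0.19 and 0.17 in VEGF Trap on slide 3 and 0.079 on slide 4. They were 0.018, 0.14, 0.22 and −0.027 in hFc and 0.10, −0.18, 0.22 and 0.43 in Dll4-Fc. The slide difference in VEGF-A was −1.33 ± 0.14 (SE, adjusted p = 0.000349), and the gap between VEGF-A 2 and the next lowest array was 1.06, the widest of any member. Nefl had log2 ratios of −0.079, 0.18, 0.17 and −0.073 in hFc, −0.017, −0.16, 0.11 and −0.23 in Dll4-Fc, and 0.32 and 0.19 in VEGF Trap on slide 3 and 0.27 on slide 4. Nefl in VEGF-A had −1.15 and −0.89 on slide 3 and 0.0023, −0.27 and −0.02 on slide 4. Nefl differed by −0.92 ± 0.13 (SE, adjusted p = 0.00284), and hFc, Dll4-Fc and VEGF Trap all lay above the slide 3 arrays. Nefh gave −0.51 ± 0.19 (SE, adjusted p = 0.163). On slide 3 within VEGF-A it had −0.47 and −0.39, below all other arrays by 0.15.

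Transcription factors of ganglion cells gave both called and uncalled differences. For Pou4f3 the VEGF-A arrays gave −1.26 and −1.01 on slide 3 and −0.02, −0.042 and 0.36 on slide 4. Values of Pou4f3 were 0.16, 0.55, 0.32 and 0.66 in hFc, 0.36, 0.084, 0.38 and −0.083 in Dll4-Fc, and 0.30 and 0.059 in VEGF Trap on slide 3 and 0.45 on slide 4. Pou4f3, the third of the Brn3 factors, differed by −1.23 ± 0.19 (SE, adjusted p = 0.00355), and the slide 3 arrays did not overlap with any others. The call of Pou4f3 was lost without VEGF-A 1. Log2 ratios of Pou4f2 were −0.87 and −0.81 in VEGF-A on slide 3, −0.58, −0.17 and 0.33 in VEGF-A on slide 4, and 0.47 and 0.029 in VEGF Trap on slide 3 and 0.66 on slide 4. They were 0.16, 0.66, 0.49 and 0.40 in hFc and 0.24, −0.37, 0.23 and −0.41 in Dll4-Fc. Pou4f2, or Brn3b, is needed for ganglion cells to form and survive. Its VEGF-A arrays ran from −0.87 to 0.33 and did not overlap between slides, with a slide difference of −0.70 ± 0.27 (SE, adjusted p = 0.176). Pou4f1, or Brn3a, gave −0.60 ± 0.25 (SE, adjusted p = 0.193). VEGF-A 3 on slide 4, at −0.63, was as low as both slide 3 arrays, at −0.70 and −0.59.

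Isl2 had log2 ratios of 0.39, 0.15, 0.25 and 0.12 in hFc, 0.13, 0.42, 0.17 and 0.10 in Dll4-Fc, and −0.026 and 0.15 in VEGF Trap on slide 3 and 0.15 on slide 4. Isl2 in VEGF-A had −0.56 and −0.47 on slide 3 and 0.076 and 0.052 on slide 4. Isl2, a LIM homeodomain factor of a subset of ganglion cells, had no value for VEGF-A 3 and differed by −0.58 ± 0.13 (SE, adjusted p = 0.0264). The call of Isl2 was lost without VEGF-A 1, VEGF-A 2, VEGF-A 4 or VEGF-A 5, and with outlier spots kept and with the series table. For Ebf3 the VEGF-A arrays gave −0.57 and −0.45 on slide 3 and −0.21, −0.13 and −0.11 on slide 4. The hFc arrays gave 0.17, 0.14, 0.14 and 0.033, the Dll4-Fc arrays 0.032, 0.065, 0.038 and 0.19, and VEGF Trap −0.18 and 0.025 on slide 3. Ebf3, a helix-loop-helix factor shared by ganglion and some amacrine cells, had no value for VEGF Trap 3 and differed by −0.37 ± 0.087 (SE, adjusted p = 0.035). The call of Ebf3 was lost without hFc 2, hFc 3, Dll4-Fc 1, VEGF-A 1, VEGF-A 2, VEGF-A 3, VEGF-A 4 or VEGF-A 5, and with all probes of a gene averaged. On slide 4 too all 3 VEGF-A arrays of Ebf3 were below all hFc arrays.

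The remaining ganglion cell genes encode surface, RNA-binding and growth-related proteins. Log2 ratios of Thy1 were −0.73 and −0.77 in VEGF-A on slide 3, 0.32, 0.019 and −0.028 in VEGF-A on slide 4, and 0.31 and 0.22 in VEGF Trap on slide 3 and 0.055 on slide 4. They were −0.011, −0.22, 0.031 and −0.20 in hFc and −0.14, 0.066, −0.053 and 0.28 in Dll4-Fc. Thy1 is a surface glycoprotein of ganglion cells, and its slide difference within VEGF-A was −0.86 ± 0.14 (SE, adjusted p = 0.00447). Stmn2 had log2 ratios of 0.14, 0.29, 0.26 and 0.14 in hFc, 0.20, −0.11, 0.19 and −0.019 in Dll4-Fc, and −0.091 and 0.034 in VEGF Trap on slide 3 and 0.15 on slide 4. Stmn2 in VEGF-A had −0.74 and −0.64 on slide 3 and −0.011, 0.13 and 0.18 on slide 4. Stmn2 binds tubulin in growing axons, and differed by −0.79 ± 0.11 (SE, adjusted p = 0.00189). The call of Stmn2 was lost with all probes of a gene averaged (−0.23, adjusted p = 0.327). For Gap43 the VEGF-A arrays gave −0.50 and −0.55 on slide 3 and −0.021, 0.23 and 0.16 on slide 4. Values of Gap43 were 0.11, 0.11, 0.25 and −0.025 in hFc, 0.13, −0.17, 0.12 and −0.071 in Dll4-Fc, and −0.015 and −0.12 in VEGF Trap on slide 3 and 0.081 on slide 4. Gap43, a growth cone protein, differed by −0.65 ± 0.11 (SE, adjusted p = 0.00834). The call of Gap43 was lost without VEGF-A 1 or VEGF-A 2.

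Log2 ratios of Rbpms were −0.28 and −0.21 in VEGF-A on slide 3, 0.44, 0.41 and 0.48 in VEGF-A on slide 4, and −0.10 and −0.071 in VEGF Trap on slide 3 and −0.037 on slide 4. They were 0.068, −0.066, −0.055 and 0.012 in hFc and 0.15, 0.0087, 0.11 and −0.10 in Dll4-Fc. Rbpms is an RNA-binding protein used to count ganglion cells, and its 3 VEGF-A arrays of slide 4 were above all other arrays. Its slide 3 values gave a difference from hFc of −0.24 (adjusted p = 0.0666), while its slide 4 values were above hFc by 0.45 (adjusted p = 0.000989). The slide difference of −0.69 ± 0.084 (SE, adjusted p = 0.000844) thus lay on both sides of hFc.

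**Figure D3:**
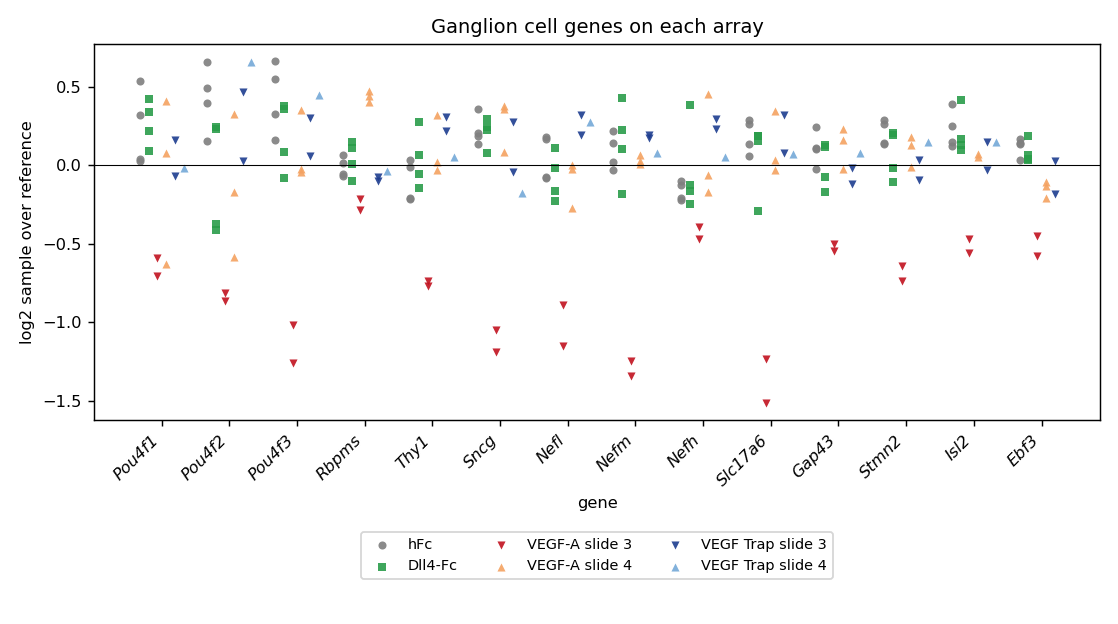
Log2 sample over reference (y) of the 14 ganglion cell genes (x), a point per array, with treatment and slide by colour and shape. Slc17a6 lies at −1.51 and −1.24 on the VEGF-A arrays of slide 3 and between −0.29 and 0.34 on all other arrays; Rbpms is higher on the VEGF-A arrays of slide 4 than on all others.

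Each class was then set against hFc for the VEGF-A arrays of each slide, in the fit of 6 cells of treatment and slide. On slide 3, 12 of 14 ganglion cell genes and 4 of 11 amacrine cell genes fell, 1 bipolar cell gene rose, and 0 of 4 horizontal cell genes were called in limma (1 at an unadjusted p under 0.05), where 13.9% of all genes were called and 7.58% were called lower. The falls ran to −1.56 for Slc17a6, −1.56 for Pou4f3, −1.38 for Nefm and −1.34 for Sncg. On slide 4, 5 of 37 members were called, where 9.29% of all genes were: Rbpms rose, and Gad1, Tfap2a, Ebf3 and Grm6 fell. There Slc17a6 gave −0.072 with an interval of −0.37 to 0.23 (95%), and Nefm −0.053 with −0.31 to 0.20. These 2 comparisons share the hFc arrays.

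VEGF Trap arrays lay on the same 2 slides, which allowed the slide difference to be compared between treatments. Between slides, VEGF Trap called 0 of 36 members in limma, with 2 at an unadjusted p under 0.05, against 0.0345% of all genes called. Slide 4 holds a single VEGF Trap array, whose spread is taken from the other cells of the fit. The median difference of 13 ganglion cell genes was −0.018 in VEGF Trap, with 7 negative and 6 positive. The slide difference in VEGF-A minus that in VEGF Trap was negative for 13 of 13 ganglion cell genes, with a median of −0.72, beside 0.0089 over all genes. In the same difference pigment epithelium markers were negative in 8 of 8 (median −1.09) and lens markers positive in 7 of 7 (median 2.45), with 2 and 0 of them at an unadjusted p under 0.05 and 0 called in limma. The slide difference within VEGF Trap was positive for 8 of 8 pigment epithelium markers (median 1.17), of which limma called 0, with 3 at an unadjusted p under 0.05. Their part in the ganglion cell values was not tested. The difference was called for 4 of 36 members, where 0.371% of all genes were called and 0.229% called lower. These were Sncg at −1.68 ± 0.20 (SE, adjusted p = 0.00435), Slc17a6 at −1.61 ± 0.28 (SE, adjusted p = 0.0285), Nefm at −1.43 ± 0.24 (SE, adjusted p = 0.0249) and Calb2 at −1.13 ± 0.19 (SE, adjusted p = 0.0249). The call of Slc17a6 was lost without VEGF-A 1 or VEGF Trap 1. That of Nefm was lost without VEGF-A 1, VEGF-A 3, VEGF Trap 1 or VEGF Trap 2, and with all probes of a gene averaged. That of Calb2 was lost without VEGF-A 2 or VEGF Trap 2, and with the Cy3 signal alone (−0.53, adjusted p = 0.501). The count was 2 without VEGF-A 1, without VEGF Trap 1 or without VEGF Trap 2, and 7 without Dll4-Fc 4, and without VEGF Trap 3 it cannot be computed.

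**Figure D4:**
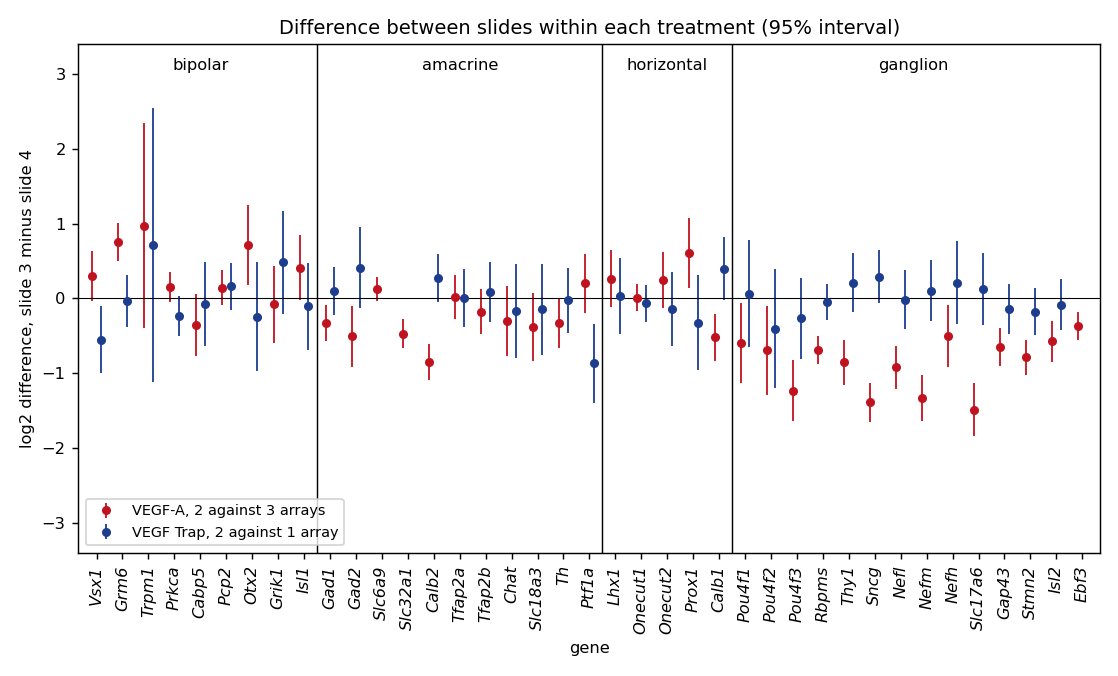
Log2 difference between slide 3 and slide 4 (y) for each member (x, by cell class) within VEGF-A (red, 2 against 3 arrays) and within VEGF Trap (blue, 2 against 1 array); points are estimates and bars 95% intervals from the fit of 6 cells. All 14 ganglion cell genes are below 0 in VEGF-A, with Slc17a6 at −1.49, while their VEGF Trap estimates run from −0.41 to 0.29.

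Some amacrine cell genes were low on the VEGF-A arrays of slide 3 alone, and others on all VEGF-A arrays. Calb2 had log2 ratios of 0.088, −0.053, 0.11 and −0.032 in hFc, 0.12, 0.25, 0.092 and 0.029 in Dll4-Fc, and 0.091 and 0.36 in VEGF Trap on slide 3 and −0.047 on slide 4. Calb2 in VEGF-A had −0.60 and −0.77 on slide 3 and 0.30, 0.16 and 0.04 on slide 4. Calb2, calretinin, is a calcium-binding protein of amacrine and ganglion cells. It was 1.81-fold lower on slide 3 within VEGF-A, at −0.85 ± 0.11 (SE, adjusted p = 0.00129), with no overlap between VEGF-A 1 and 2 and any other array. The call of Calb2 was lost with the Cy3 signal alone (−0.50, adjusted p = 0.0808). For Slc32a1 the VEGF-A arrays gave −0.46 and −0.33 on slide 3 and 0.11, 0.054 and 0.078 on slide 4. The hFc arrays gave −0.077, −0.094, 0.032 and −0.08, the Dll4-Fc arrays −0.0045, 0.029, 0.085 and 0.25, and VEGF Trap 0.17 and 0.037 on slide 3. Slc32a1, which loads GABA and glycine into vesicles, had no value for VEGF Trap 3 and differed by −0.47 ± 0.089 (SE, adjusted p = 0.0117). The call of Slc32a1 was lost without VEGF-A 1, and with all probes of a gene averaged.

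Log2 ratios of Gad1 were −0.67 and −0.56 in VEGF-A on slide 3, −0.23, −0.44 and −0.18 in VEGF-A on slide 4, and 0.27 and 0.15 in VEGF Trap on slide 3 and 0.11 on slide 4. They were −0.029, 0.22, 0.18 and 0.043 in hFc and 0.017, −0.091, −0.0091 and 0.18 in Dll4-Fc. Gad1 makes GABA, and its 5 VEGF-A arrays all lay below every other array. It fell by 0.52 ± 0.10 (SE, adjusted p = 0.00331) against hFc and differed from VEGF Trap by −0.59 ± 0.11 (SE, adjusted p = 0.00159). The latter call was lost within slide 4 (−0.39, adjusted p = 0.0904). Against hFc the difference was −0.72 (adjusted p = 0.000549) on slide 3 and −0.39 (adjusted p = 0.0196) on slide 4, and the slide difference within VEGF-A, −0.33 ± 0.11 (SE, adjusted p = 0.117), did not pass the test. Tfap2a had log2 ratios of 0.41, 0.09, 0.10 and 0.38 in hFc, 0.16, 0.0071, 0.094 and −0.18 in Dll4-Fc, and 0.11 and 0.29 in VEGF Trap on slide 3 and 0.19 on slide 4. Tfap2a in VEGF-A had −0.27 and −0.15 on slide 3 and −0.34, −0.089 and −0.26 on slide 4. The factor Tfap2a, or AP-2 alpha, is expressed by most amacrine cells, and fell by 0.47 ± 0.093 (SE, adjusted p = 0.00341) against hFc. Its 5 VEGF-A arrays lay below all arrays but Dll4-Fc 4, and the slide difference was 0.018 with a 95% interval of −0.27 to 0.31. Against VEGF Trap it gave −0.42 (adjusted p = 0.00881). The call of Tfap2a was lost with all probes of a gene averaged, with VEGF-A limited to slide 3, within slide 3 and within slide 4.

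For Slc6a9 the VEGF-A arrays gave −0.20 and −0.15 on slide 3 and −0.30, −0.28 and −0.31 on slide 4. Values of Slc6a9 were −0.16, −0.22, −0.26 and −0.16 in hFc, −0.16, −0.11, −0.21 and −0.025 in Dll4-Fc, and 0.19 and 0.13 in VEGF Trap on slide 3. Slc6a9, the glycine transporter GlyT1 of glycinergic amacrine cells, had its 2 VEGF Trap values above all other arrays. It had no value for VEGF Trap 3, and gave 0.36 ± 0.078 (SE, adjusted p = 0.0257) for VEGF Trap against hFc and −0.41 ± 0.075 (SE, adjusted p = 0.00181) for VEGF-A against VEGF Trap. The first call was lost without hFc 2, hFc 3, VEGF Trap 1 or VEGF Trap 2, and with the Cy3 signal alone, with outlier spots kept (0.23, adjusted p = 0.165) and with the series table (0.23, adjusted p = 0.137). The other call was lost with slide as a fixed block. Log2 ratios of Tfap2b were −0.36 and −0.21 in VEGF-A on slide 3, −0.10, −0.11 and −0.11 in VEGF-A on slide 4, and 0.20 and 0.19 in VEGF Trap on slide 3 and 0.11 on slide 4. They were 0.14, −0.079, −0.033 and −0.20 in hFc and −0.12, 0.047, −0.082 and 0.39 in Dll4-Fc. Tfap2b, AP-2 beta, was called between VEGF-A and VEGF Trap at −0.34 ± 0.11 (SE, adjusted p = 0.0445), and only there. The call of Tfap2b was lost without hFc 2, hFc 3, Dll4-Fc 2, VEGF-A 1, VEGF-A 2, VEGF-A 4, VEGF-A 5, VEGF Trap 1, VEGF Trap 2 or VEGF Trap 3, and with the Cy3 signal alone, with arrays centred on their median, with VEGF-A limited to slide 3, with VEGF-A limited to slide 4, within slide 3 and within slide 4 (−0.21, adjusted p = 0.494).

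The other amacrine cell genes, Gad2, Chat, Slc18a3, Th and Ptf1a, passed no test in these comparisons. Gad2, the other GABA-making enzyme, gave −0.51 between slides within VEGF-A, with slide 3 arrays at −0.59 and −0.45 and slide 4 arrays at 0.35, −0.23 and −0.16. Chat and Slc18a3, which make and load acetylcholine, gave −0.30 and −0.38, and Slc18a3 had a value on hFc 1 alone among the hFc arrays. Th, the enzyme of dopamine synthesis, gave −0.33, and Ptf1a, a factor that directs cells to the amacrine and horizontal fates, 0.20. The class median per array was −0.36 and −0.21 on VEGF-A 1 and 2, and −0.10, −0.089 and −0.11 on VEGF-A 3, 4 and 5. It lay between −0.056 and 0.17 on the arrays of the other groups.

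Of the 9 bipolar cell genes 7 had a positive slide difference within VEGF-A, and 1, Grm6, was called. Their median difference was 0.30, against −0.74 for ganglion cell genes and −0.014 over all genes. By array the class median was 0.063 and 0.16 on slide 3 and −0.20, −0.11 and −0.27 on slide 4 in VEGF-A, and it lay between −0.15 and 0.058 on the other arrays. Grm6 had log2 ratios of −0.035, −0.26, −0.11 and −0.15 in hFc, −0.45, −0.17, −0.47 and −0.61 in Dll4-Fc, and 0.30 and 0.14 in VEGF Trap on slide 3 and 0.25 on slide 4. Grm6 in VEGF-A had 0.26 and 0.27 on slide 3 and −0.58, −0.41 and −0.48 on slide 4. Grm6 is the glutamate receptor by which ON bipolar cells respond to photoreceptors. Its VEGF-A arrays of slide 3 were in the range of VEGF Trap and above all hFc arrays, and those of slide 4 below all hFc arrays. The slide difference was 0.75 ± 0.12 (SE, adjusted p = 0.00423), or 1.68-fold higher on slide 3, and on slide 4, where 1 array stands for VEGF Trap, VEGF-A differed from it by −0.74 ± 0.15 (SE, adjusted p = 0.00668). Against hFc, Grm6 gave −0.047 for all 5 VEGF-A arrays.

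For Pcp2 the VEGF-A arrays gave −0.076 and 0.16 on slide 3 and −0.20, −0.028 and −0.067 on slide 4. The hFc arrays gave 0.15, −0.028, 0.014 and −0.0046, the Dll4-Fc arrays −0.06, 0.023, −0.16 and −0.022, and VEGF Trap −0.45 and −0.19 on slide 3 and −0.48 on slide 4. Pcp2, a protein of ON bipolar cells that acts on G proteins, was low on the VEGF Trap arrays, with VEGF Trap 2 at −0.19 beside VEGF-A 3 at −0.20. It fell by 0.41 ± 0.094 (SE, adjusted p = 0.0303) in VEGF Trap against hFc and was higher in VEGF-A than in VEGF Trap by 0.33 ± 0.09 (SE, adjusted p = 0.0176). The first call was lost without hFc 1, hFc 2, hFc 3, hFc 4, VEGF Trap 1 or VEGF Trap 3, and with all probes of a gene averaged and with hFc 1 and 2 averaged. The other call was lost without VEGF Trap 1 or VEGF Trap 3, and with all probes of a gene averaged, with VEGF-A limited to slide 4, with slide as a fixed block, within slide 3 and within slide 4. Its slide difference was 0.14 in VEGF-A and 0.16 in VEGF Trap.

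None of the other 7 bipolar cell genes was called in these 6 comparisons. Trpm1, the channel that Grm6 signalling gates, had the widest spread of any member, from −2.02 on VEGF-A 5 to 1.92 on VEGF Trap 2. Trpm1 is also a gene of pigment cells, and the median log2 ratio of 8 pigment epithelium markers was −0.97 and 0.93 on those arrays. The part of pigment cells in the value of Trpm1 was not tested. Otx2, a factor of bipolar cells and photoreceptors, gave 0.71 (adjusted p = 0.131) between slides, with VEGF-A 3 at −1.10. Vsx1, a factor of cone bipolar cells, gave 0.30 (adjusted p = 0.304) between slides and between VEGF-A and VEGF Trap −0.80 (adjusted p = 0.0199) on slide 4, where 1 array, at 0.69, stands for VEGF Trap beside 0.23 and 0.048 on slide 3. Isl1, a factor of ON bipolar cells, gave 0.41, Prkca, the rod bipolar kinase, 0.15, Grik1, a kainate receptor of OFF bipolar cells, −0.077, and the calcium-binding protein Cabp5 −0.36.

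Horizontal cell genes passed no test in the 6 comparisons, with 2 of 5 at an unadjusted p under 0.05 between slides within VEGF-A (limma). Log2 ratios of Calb1 were −0.38 and −0.40 in VEGF-A on slide 3, 0.34, 0.032 and 0.021 in VEGF-A on slide 4, and 0.21 and 0.34 in VEGF Trap on slide 3 and −0.12 on slide 4. They were −0.051, 0.055, 0.12 and 0.016 in hFc and 0.0003, −0.029, 0.015 and 0.45 in Dll4-Fc. Calb1, calbindin, is a calcium-binding protein listed here as a horizontal cell gene, and its VEGF-A arrays of slide 3 were the lowest of all arrays. It gave −0.52 ± 0.14 (SE, adjusted p = 0.0609) between slides within VEGF-A, and differed from VEGF Trap on slide 3 by −0.66 (adjusted p = 0.0137). The factors Prox1, Lhx1, Onecut2 and Onecut1 had slide differences of 0.61, 0.26, 0.24 and 0.0078. The class median of the slide difference was 0.24, and −0.059 when all probes of a gene were averaged. On VEGF-A 3 the class median was −0.47, with Prox1 at −0.78, Lhx1 at −0.50 and Onecut2 at −0.47.

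Between treatments, VEGF-A against hFc called 2 of 14 ganglion cell genes lower and 0 higher. There 10.2% of all genes were called and 4.3% called lower. VEGF-A against VEGF Trap also called 2 of 14 lower and 0 higher, against 19.3% of all genes called and 8.7% called lower. Against hFc, Pou4f2 fell by 0.85 ± 0.24 (SE, adjusted p = 0.0344). The call of Pou4f2 was lost without hFc 2, hFc 3, hFc 4, VEGF-A 1, VEGF-A 2 or VEGF-A 3, and with hFc 1 and 2 averaged and with VEGF-A limited to slide 4. Ebf3 fell by 0.41 ± 0.10 (SE, adjusted p = 0.0141). The call of Ebf3 was lost with normexp and loess and with the Cy3 signal alone. The median over the 14 genes was −0.48, with 12 negative, beside −0.045 over all genes. Pou4f3 gave −0.82 (adjusted p = 0.0758), Isl2 −0.45 (adjusted p = 0.0587), Slc17a6 −0.67 (adjusted p = 0.207) and Sncg −0.50 (adjusted p = 0.31). On slide 3 and slide 4 taken alone, the difference from hFc was −1.27 and −0.57 for Pou4f2 and −0.63 and −0.27 for Ebf3. The count of 4 called members became 7 without VEGF-A 5. Against VEGF Trap, Pou4f2 differed by −0.80 (adjusted p = 0.042) and Nefl by −0.73 (adjusted p = 0.0315). The call of Pou4f2 was lost without hFc 3, hFc 4, VEGF-A 1, VEGF-A 2, VEGF-A 3, VEGF Trap 1 or VEGF Trap 3, and with no filter on dim probes, with VEGF-A limited to slide 4 (−0.53, adjusted p = 0.167) and within slide 4. That of Nefl was lost without VEGF-A 2, VEGF Trap 1, VEGF Trap 2 or VEGF Trap 3, and with the Cy3 signal alone, with all probes of a gene averaged and within slide 4 (−0.37, adjusted p = 0.189). Within slide 3 and within slide 4 the difference from VEGF Trap was −1.09 and −0.80 for Pou4f2 and −1.28 and −0.37 for Nefl. The 7 calls against VEGF Trap became 4 without VEGF Trap 1 and 3 without VEGF Trap 3. With slide as a block they were 7, all lower.

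Within slide 3, VEGF-A against VEGF Trap called 18 of 39 members lower and 0 higher, where 13.1% of all genes were called and 6.04% called lower. Of the 18, 12 were ganglion cell genes (all but Pou4f1 and Rbpms), 5 amacrine cell genes (Gad1, Gad2, Slc6a9, Slc32a1 and Calb2) and 1 a horizontal cell gene (Calb1). The 5 with the largest differences were Slc17a6 at −1.57, Nefm at −1.48, Pou4f3 at −1.32, Nefl at −1.28 and Sncg at −1.23. Within slide 4 the same comparison called 3 of 36, Rbpms higher and Vsx1 and Grm6 lower, where 12.5% of all genes were called. There it rests on 1 VEGF Trap array. Sncg gave 0.45 and Slc17a6 0.042 within slide 4.

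After Dll4-Fc, 0 members were called against hFc, and the medians were −0.032 for ganglion, −0.027 for amacrine, −0.09 for bipolar and −0.022 for horizontal cell genes, beside −0.016 over all genes. The widest were Trpm1 at 0.51 and Pou4f2 at −0.50, with a 95% interval of −1.04 to 0.032 for the latter. For Sncg the interval was −0.66 to 0.64 and for Slc17a6 −0.83 to 0.57, so changes within these bounds could not be told from 0. This fit takes 1 spread per gene from all groups, and the VEGF-A arrays, which differ by slide, widen it for these genes. The SD of Sncg was 0.095 in hFc, 0.092 in Dll4-Fc and 0.77 in VEGF-A, and that of Slc17a6 was 0.11, 0.23 and 0.83. The same fit served VEGF Trap against hFc. After VEGF Trap the medians against hFc were −0.093 for ganglion and 0.073 for amacrine cell genes. Besides Slc6a9 and Pcp2 no member was called, and these 2 calls became 0 without hFc 2, without hFc 3 or without VEGF Trap 1, and 1 without hFc 1, hFc 4, VEGF Trap 2 or VEGF Trap 3.

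Other probes of the members gave the slide difference a second reading on the same arrays. For ganglion cell genes, 15 of 16 other probes, from 12 genes, were lower on slide 3, and 11 passed the test over all probes, where 2.96% of all probes were called and 2.03% called lower. The exception was a dim probe of Stmn2 at 0.77 (adjusted p = 0.23). The 3 other probes of Calb2 were all called lower, with −1.11 the largest difference, those of Slc17a6 gave −1.33 and −1.35, and that of Sncg −1.47. Pou4f1, not called by its brightest probe, gave −1.07 (adjusted p = 0.000601) by its other probe. Of the 5 other probes of bipolar cell genes, 5 were higher on slide 3 and 0 passed limma's test, with 2 (of Grm6 and Otx2) at an unadjusted p under 0.05. Of 10 other probes from 6 amacrine cell genes, 8 were lower and 2 higher, and the 3 called were those of Calb2. Of 7 other probes from 4 horizontal cell genes, 2 were lower, 5 higher and 0 called in limma.

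Further genes of the same classes, also chosen with earlier results known, were read in the same way. Of 28 further ganglion cell genes measured, 12 were lower on slide 3 than on slide 4 within VEGF-A and 0 higher, with a median of −0.52. Of all genes, 2.87% were called lower there and 1.52% higher. The 3 with the smallest p were Cplx1 (−0.95), a complexin of synaptic vesicle release, Nrn1 (−0.99), the growth factor neuritin, and Opn4 (−0.87), the photopigment melanopsin of light-sensitive ganglion cells. Of 20 further amacrine cell genes, 3 were lower: the neuropeptide genes Sst (−1.23) and Tac1 (−0.92), and Pcp4 (−1.10), which binds calmodulin. Of 15 further bipolar cell genes 0 were called in limma, with 6 at an unadjusted p under 0.05. Of the further horizontal cell genes Lypd1 (−0.47) was lower, and of 17 genes of synapses and vesicles 1, Syn2 (−0.62). In the slide difference of VEGF-A minus that of VEGF Trap, Cplx1 (−1.04), Elavl2 (−1.28) and Nrn1 (−0.97) were called among the ganglion cell genes, 3 of 28. Of all genes, 0.371% were called in that difference and 0.229% called lower.

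Of 13 genes of the response of ganglion cells to injury, 2 were lower on slide 3 within VEGF-A, Gal (−0.75) and Chac1 (−0.60), and 0 were higher. Between these slides 2.87% of all genes were called lower. Against hFc, 2 rose and 2 fell after VEGF-A, where 5.89% of all genes were called higher and 4.3% lower. Atf3, a stress factor induced in injured neurons, rose by 1.15 ± 0.15 on slide 3 and 1.41 ± 0.13 on slide 4 (SE). Fgf2, a growth factor that glia and photoreceptors also make, rose by 1.85 ± 0.21 and 2.05 ± 0.19, and Csrp3, a LIM protein, fell on both. These 3 genes were called against hFc on both slides. Of the 28 further ganglion cell genes, 18 fell on slide 3 and 1 on slide 4. Against hFc 7.58% of all genes were called lower on slide 3 and 3.4% on slide 4. After Dll4-Fc, 2 of the 28 rose, Spp1 (3.62), which microglia also make, and Atoh7 (1.02), where 3.07% of all genes were called higher. In that comparison 6 of 7 microglia markers rose and 1 fell (median 0.82), and 8 of 12 Müller glia markers fell (median −0.80). Their part in these values was not tested.

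Markers of other cells were read on the same arrays. Of 10 rod markers 9 were kept and 8 were well above background on all arrays. Lens markers differed most between arrays: their median log2 ratio was −2.54 and 0.07 on VEGF-A 1 and 2 and −3.94, −2.88 and −3.94 on VEGF-A 3, 4 and 5. It ran from −3.92 to 1.52 in hFc, from −3.80 to 0.33 in Dll4-Fc and from −2.80 to 1.57 in VEGF Trap. Within VEGF-A 7 of 7 lens markers were higher on slide 3, with a median of 2.35, and 0 were called in limma or had an unadjusted p under 0.05. On hFc 4 and VEGF Trap 2, where the lens median was 1.52 and 1.57, the ganglion cell median was 0.078 and 0.068. Markers of oligodendrocytes and optic nerve gave a median slide difference of −0.016, with 5 of 10 positive and 5 negative. Of these 10, limma called 2 lower, where 2.87% of all genes were, and 5 had an unadjusted p under 0.05. Against hFc on slide 3, 3 of the 10 fell and 1 rose, where 7.58% of all genes were called lower and 6.29% higher. Astrocyte markers gave a median slide difference of −0.11. In limma 0 rod, cone, Müller glia, astrocyte, endothelial and cell cycle markers were called between the slides, with 1 endothelial and 1 cell cycle marker at an unadjusted p under 0.05, and 1 of 8 microglia markers was higher. Pigment epithelium had 1 of 8 lower, and its median ran from −0.97 to 0.11 in VEGF-A. The part of these cells in the ganglion cell values was not tested.

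Slide was not the only label that divided the VEGF-A samples. Their title codes end in 1 for both samples of slide 3 and in 2 for the 3 of slide 4, and no source used here gives what this number stands for, so it and the slide cannot be told apart within VEGF-A. All 3 VEGF Trap codes end in 1, on both slides. Within slide 1 the code of hFc 1 ends in 1, and within slide 2 that of Dll4-Fc 2. The other hFc and Dll4-Fc codes end in 2. The ganglion cell median was 0.13 on hFc 1, where the other hFc arrays ran from 0.078 to 0.23. It was −0.05 on Dll4-Fc 2, where the other Dll4-Fc arrays ran from 0.087 to 0.18. The part of this last number in the ganglion cell values was not tested. The first part of the code is the same for hFc 1 and 2, and for VEGF-A 4 and VEGF Trap 3, and its meaning is not stated either. The leading number of that part goes with the slide in every sample, VEGF Trap included. Slide differences in VEGF-A and in VEGF Trap are thus also differences of that number. The median Cy3 signal was 867 and 910 on VEGF-A 1 and 2, 842 and 810 on VEGF Trap 1 and 2, and 714 to 732 on the 4 arrays of slide 4. Of the 39 members, 11 lie in a band of array rows where hFc spots were often marked as outliers (2350 to 2599 spots on hFc arrays, 12 to 213 on the others), and with that band left out 8 of 28 members were called between the slides within VEGF-A. Without VEGF-A 1 the count was 9 of 39, of which 7 were ganglion cell genes.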

How the data were processed

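Scanner files of 16 Agilent arrays of 2 colours were used. Per the file headers, Agilent Feature Extraction 9.5.1.1 subtracted background, removed spatial and multiplicative trends, normalised dyes by lowess and wrote the deposited log10 ratio of Cy5 over Cy3 with the deposited spot intensities of both channels. The deposited series table proved to hold natural log ratios of sample over reference and served as an alternative; its column medians ran from −0.00581 to 0.0218. Each log10 ratio was turned to log2 of sample over reference, since the labels give Cy3 as the sample. Spots marked as outliers were dropped, and repeat spots of a probe averaged. A probe was kept if its Cy3 signal was well above background on 3 or more arrays, which left 39788 of 43426, and each of 23307 genes took its brightest probe, named through RefSeq (GRCm38.p6).

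limma 3.58.1 in R 4.3.3 fitted the 4 groups, and a second model the 6 cells of treatment and slide (moderated, two-sided test, Benjamini-Hochberg over all genes, threshold 0.05). The script was tested on simulated data. Values on each array are given for members called in any of the 6 comparisons and, in a class without one, for the brightest member; of other lists up to 3 called genes are named by smallest p, except for 1 result that is not reported here. The number of arrays limits precision. Alternatives were other normalisation, channel, filters, probe choice, slide blocks and leaving out each array. The members and lists were chosen with earlier results of these data known.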

Additional observations from a re-analysis of the deposited data

Results flagged for a closer look

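The slide difference in VEGF-A differed from that in VEGF Trap for 4 members by limma's test of the difference itself. It was −1.68 for Sncg, −1.61 for Slc17a6, −1.43 for Nefm and −1.13 for Calb2 on the log2 scale. One VEGF Trap array stands for slide 4 in each.

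Of 129 groups of 4 or 5 arrays examined over members and class medians, 6 held an array far from the rest of its group, where chance gives about 1 in 20. Trpm1 was high on hFc 4, at 0.12. Slc32a1 stood apart on hFc 3 at 0.032, and Ptf1a on the same array at 0.055. Calb1 was high on Dll4-Fc 4, at 0.45. Slc17a6 was low on Dll4-Fc 2, at −0.29. The median of the horizontal cell genes was low on VEGF-A 3, at −0.47.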

How the results depend on the processing

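Of 814 repeated values for the 31 called differences of single members, 711 kept their direction and call, 103 kept the direction without passing the threshold and 0 reversed; 10 differences kept their call throughout. Median slide differences within VEGF-A moved as follows. With the Cy3 signal alone they were −0.48 for amacrine, 0.42 for bipolar, −0.85 for ganglion and 0.11 for horizontal cell genes. With normexp and loess the amacrine median was −0.27, and without the band of rows the bipolar median was 0.41. Averaging all probes of a gene gave −0.82 for ganglion cell genes and turned the horizontal median to −0.059. Leaving out 1 array gave −0.38 to −0.21 for amacrine, 0.26 to 0.35 for bipolar, −0.86 to −0.71 for ganglion and 0.11 to 0.31 for horizontal cell genes; the cause was not tested. Ganglion cell genes called lower numbered 6 without the band, where fewer were measured, and 7 to 11 without 1 array. Called members between slides numbered 8 without the band and 9 to 15 without 1 array. VEGF Trap against hFc called 1 with Cy3 alone, outlier spots kept, probes averaged, the series table, or hFc 1 and 2 averaged, and 0 to 2 without 1 array. VEGF-A against VEGF Trap called 20 where VEGF-A was limited to its slide 3 arrays, 18 within slide 3, 3 within slide 4 and 3 to 8 without 1 array. VEGF-A against hFc called 17 under that limit and 3 to 7 without 1 array. The difference between treatments in the slide difference called 2 to 7 without 1 array, and could not be fitted without VEGF Trap 3. Dll4-Fc against hFc called 0 under all settings run. As a random block, slide had a correlation of −0.0034 and changed no count in the treatment comparisons by more than 1.5 times. That correlation is a single value for all genes. As hFc and Dll4-Fc each fill a slide, this setting cannot separate slide from treatment in comparisons with hFc. The random block was not run for the slide comparisons. No paired analysis was possible because the replicate numbers only name the samples, and the title codes join a single sample of VEGF-A with one of VEGF Trap.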
